A study of Homo sapiens with 12 samples.

Results

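Interferon-stimulated genes are the genes that a cell switches on after an interferon binds its receptor. The 43 genes described here are 39 such genes and 4 of the transcription factors that drive them, STAT2, IRF1, IRF7 and IRF9, taken by name from the count and TPM tables, which list 58721 genes. All 43 were found in the tables, once each. They were followed in 2 human pancreatic ductal adenocarcinoma lines, Pa-Tu-8902 and MIA PaCa-2, which carry a doxycycline (dox)-inducible short hairpin RNA against GOT1, the cytosolic aspartate aminotransaminase. Both the untreated and the treated cells carried the hairpin. Treated cells received dox for 5 days, untreated cells received none, and polyA RNA of each of the 4 groups was sequenced in 3 libraries. Which GOT1 hairpin was used, and whether the carriers were clones or pools, are not given in the sources used here. No dox-treated library without a GOT1 hairpin was analysed here, so GOT1 loss and the exposure to dox cannot be told apart in these comparisons. The labels do not say whether libraries of a group came from separate cultures, so the p-values measure only the spread between these libraries. The design asks how the interferon-stimulated program of each line changed when dox was added, and how far the lines differed beforehand.

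Type I interferons signal through the receptor chains IFNAR1 and IFNAR2 and the kinases JAK1 and TYK2, which phosphorylate STAT proteins, STAT2 among them. STAT2 and IRF9 then enter the complex ISGF3, which binds the interferon-stimulated response element in target promoters. Interferon gamma instead acts through gamma-activated sequences, with IRF1 among the best known early targets. Many of the products block a step of viral replication, and many tumour cell lines express part of the program without any added interferon.

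The libraries held between 26226537 and 43406137 counts, so that 3 counts, the limit taken here for a silent gene, correspond to 0.0691 to 0.114 CPM (counts per 1e6 counts of the library). GOT1 went from 78.3 to 83.4 TPM down to 3.29 to 4.51 TPM in Pa-Tu-8902, and from 38.9 to 44.1 TPM down to 1.68 to 1.95 TPM in MIA PaCa-2. The lines were assigned by the deposited sample titles. In the study's supplementary table for Pa-Tu-8902, the per-library counts are those deposited with MIA PaCa-2 titles, so the sources conflict on which line these libraries are. Of 6 markers of ductal epithelium, KRT7, EPCAM and CDH1 were at 60.0 TPM or more in all libraries titled Pa-Tu-8902 and at 1.26 TPM or less in all those titled MIA PaCa-2, while KRT8, KRT18 and KRT19 were at 128 TPM or more in every library of both. Of 3 mesenchymal markers, VIM and ZEB1 were higher in each MIA PaCa-2 library, and CDH2 was at 0.56 to 1.16 TPM in Pa-Tu-8902 and 0.01 TPM or less in MIA PaCa-2. Of 7 immune cell markers, 5 (PTPRC, CD3E, AIF1, LILRA4 and CLEC4C) were below 0.2 TPM in each of the 12 libraries. CD68 was at 2.86 to 9.68 TPM and CD14 at 0.32 to 4.06 TPM over the libraries. The summed level of all 7 was 5.12 to 6.87 TPM in untreated and 3.38 to 4.69 TPM in dox-treated Pa-Tu-8902. In MIA PaCa-2 it was 11.4 to 13.5 TPM untreated and 9.11 to 11.2 TPM treated. The 3 endothelial markers summed to 1.14 TPM or less in every library. Among them, VWF had 9, 21 and 15 counts in untreated and 82, 78 and 52 in treated Pa-Tu-8902. The summed TPM of 4 fibroblast markers went from 3.82 to 6.38 up to 18.0 to 21.6 with dox in Pa-Tu-8902, mostly COL1A1, and from 192 to 248 up to 340.4 to 398 in MIA PaCa-2, mostly COL1A2, and its part in the results below was not tested. In bulk RNA a change in the share of cells that express a gene and a change in RNA per cell cannot be told apart.

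With dox, much of the program rose in Pa-Tu-8902, and no member was called higher in MIA PaCa-2. In Pa-Tu-8902, 24 of the 42 members with enough counts to test were called higher and 1, HERC5, was called lower. A call required an adjusted p below 0.01 in edgeR's quasi-likelihood test and a change of at least 1.5-fold. Across all 14949 genes tested in this line, 16.3% were called, 9.22% higher and 7.12% lower. The median log2 fold change was 0.70 over the 42 members and 0.0014 over all genes tested. In MIA PaCa-2, 31 members could be tested, and 8 of them were called lower and 0 higher by edgeR. DESeq2 also called 0 higher, and at an unadjusted edgeR p below 0.05 the estimates of 4 members (IFI35, IRF1, PARP14 and SP100) were positive and those of 14 negative. There 12% of the 14589 genes tested were called, 7.64% lower and 4.36% higher, and the members' median log2 fold change was -0.25 against -0.0089 over all genes. The summed TPM of the 43 members was 1435, 1460 and 1547 in untreated and 2224, 2268 and 2327 in treated Pa-Tu-8902. In MIA PaCa-2 the same sum was 670.3, 615.3 and 724 untreated and 543, 523 and 526 with dox. The sums did not overlap between treated and untreated libraries in either line, and they moved in opposite directions. They are weighted to the most abundant members. In Pa-Tu-8902 the mean of IFITM3 went from 332 to 676 TPM and that of LGALS3BP from 302 to 447 TPM. ISG15 went the other way there, from 222 to 175.5 TPM. In MIA PaCa-2 IFITM3 went from 274 to 225 TPM, IFITM1 from 105 to 72.8 TPM and IFITM2 from 94.5 to 55.5 TPM.

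**Figure D1:**
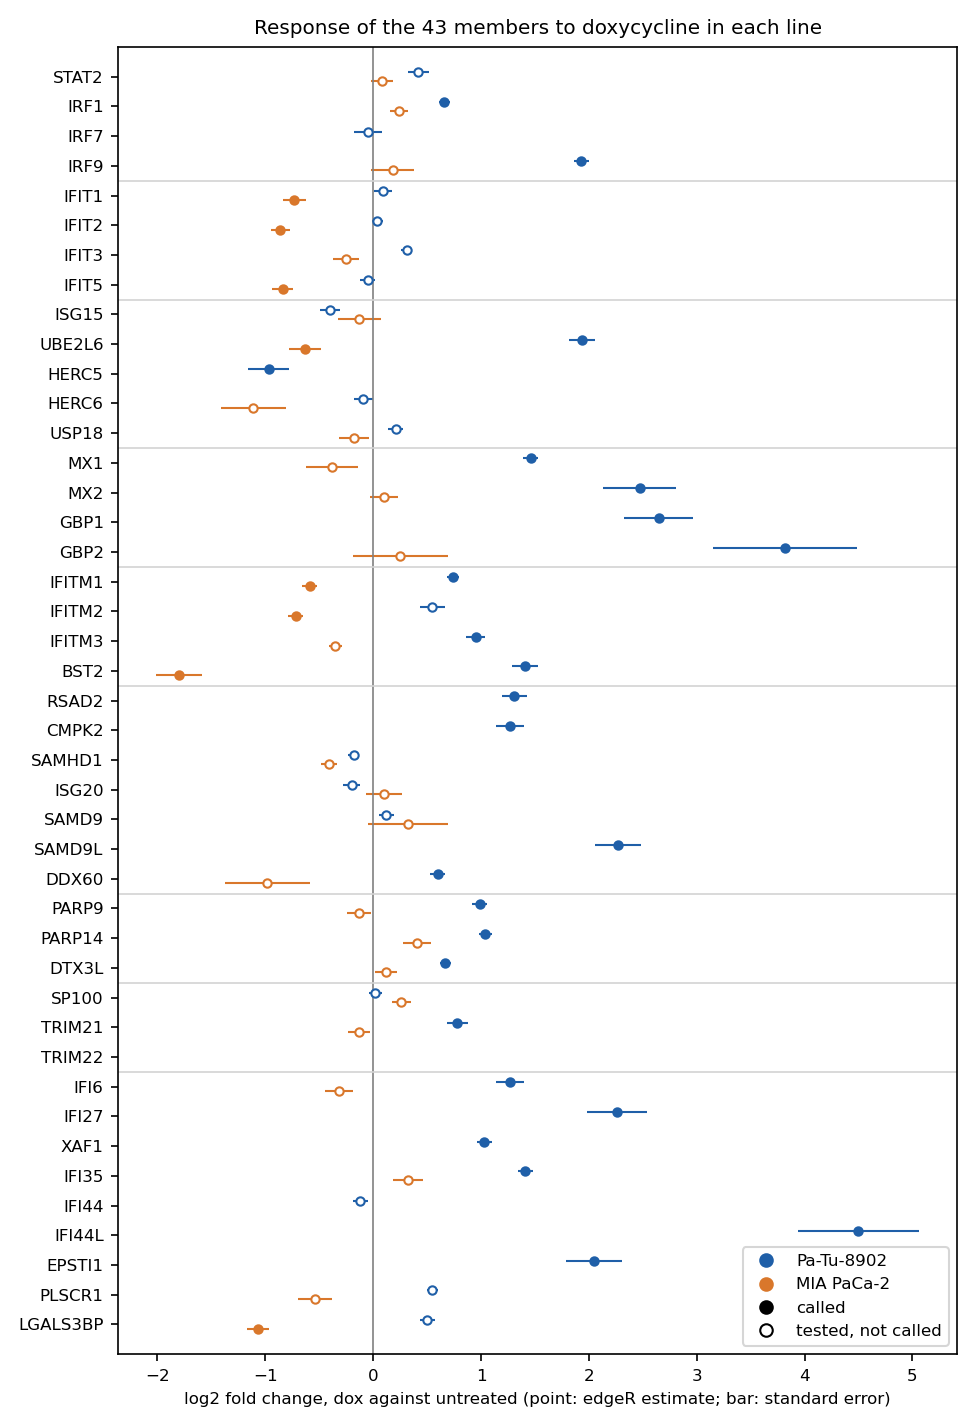
Log2 fold change of each member with dox against untreated (x axis; points are edgeR estimates, bars are standard errors) in Pa-Tu-8902 (blue) and MIA PaCa-2 (orange), with filled points for called members and open points for those tested and not called. Members are listed by role, and those without a point had too few counts in that line. In Pa-Tu-8902 24 members sit to the right of 0 as called, and in MIA PaCa-2 the 8 called members all sit to the left.

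Of the called members in Pa-Tu-8902, 5 (MX2, IFI27, IFI44L, GBP1 and GBP2) had 10 counts in 3 libraries only because of the dox group, and such genes could only be found higher. Among the 37 members with at least 10 counts in all 6 libraries, 19 were called higher and 1 lower, where 9.23% and 7.28% of all genes under that limit were called. Normalized counts of the treated libraries lay above all untreated libraries for 30 of 42 members and below them for 5, against 29% and 29.5% of all genes. The 30 include MX2, IFI27, IFI44L, GBP1 and GBP2, which entered the test only through the dox group. In MIA PaCa-2 normalized counts of the treated libraries lay above for 4 of 31 members and below for 16, against 25.9% and 27.0% of all genes. The 16 include DDX60, which entered the test there only through the untreated group.

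The 4 factors differed in level and in response. IRF9, the DNA-binding subunit of ISGF3 (chr14:24161234-24168043), was at 9.59, 12.04 and 10.2 TPM in untreated Pa-Tu-8902 and at 44.1, 46.8 and 44 TPM with dox. Every treated library exceeded every untreated one, and the log2 fold change was 1.93 ± 0.07 (SE), or 3.81-fold, with an edgeR adjusted p of 2.13e-08. In MIA PaCa-2, IRF9 was at 7.49, 5.34 and 8.33 TPM untreated and at 7.96, 8.49 and 9.22 TPM with dox. Counts of the 2 groups overlapped there, the log2 fold change was 0.18 ± 0.20 (edgeR adjusted p = 0.484), and the difference between the responses was 1.74 ± 0.22 on the log2 scale (edgeR adjusted p = 1.12e-05). Part of the IRF9 exons, 1544 of 6471 bases, is shared with another gene on the same strand in GENCODE 44. Some reads could have been split between the 2 if the annotation used for the counts also held that gene.

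IRF1, a target of interferon gamma and itself an activator of interferon-stimulated genes, was at 26.7, 28.9 and 27.1 TPM untreated and 43.4, 44.8 and 42.3 TPM treated in Pa-Tu-8902. The treated libraries were all higher, by 0.66 ± 0.05 on the log2 scale (edgeR adjusted p = 2.83e-06). The MIA PaCa-2 libraries held 13.3, 10.2 and 14.4 TPM untreated and 14.5, 15.8 and 15.04 TPM with dox, a log2 fold change of 0.24 ± 0.08 that was not called (edgeR adjusted p = 0.0249). The response of IRF1 was not called different between the lines, with a difference of 0.42 ± 0.09 that missed the fold limit. IRF1 has exons that overlap an antisense RNA, and reads of the pair may not have been told apart. The libraries were strand-specific. The study's methods give default parameters where they name STAR as the aligner called by RSEM, and name no strand option. RSEM by default does not use strand, so whether strand was used is not certain.

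STAT2, the subunit of ISGF3 with a strong activation domain, was at 10.6, 9.5 and 6.67 TPM untreated and 16.7, 12.7 and 15.1 TPM with dox in Pa-Tu-8902. Its normalized counts did not overlap between the groups, but the log2 fold change of 0.42 ± 0.10 was below the fold limit. With RSEM's effective lengths as offsets STAT2 was called, at 0.67. The MIA PaCa-2 libraries were at 8.56, 7.55 and 12.3 TPM untreated and 9.84, 9.89 and 9.08 TPM with dox, and overlapped. IRF7, which amplifies the type I response once it has begun, was at 7.36, 11.1 and 9.7 TPM in untreated and 9.9, 9.05 and 9.77 TPM in treated Pa-Tu-8902, with overlapping groups and a log2 fold change of -0.05 ± 0.13. It had 0 counts in all 6 MIA PaCa-2 libraries. Thus IRF9 rose most of the 4 factors in Pa-Tu-8902, IRF1 rose less, and STAT2 and IRF7 were not called.

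**Figure D2:**
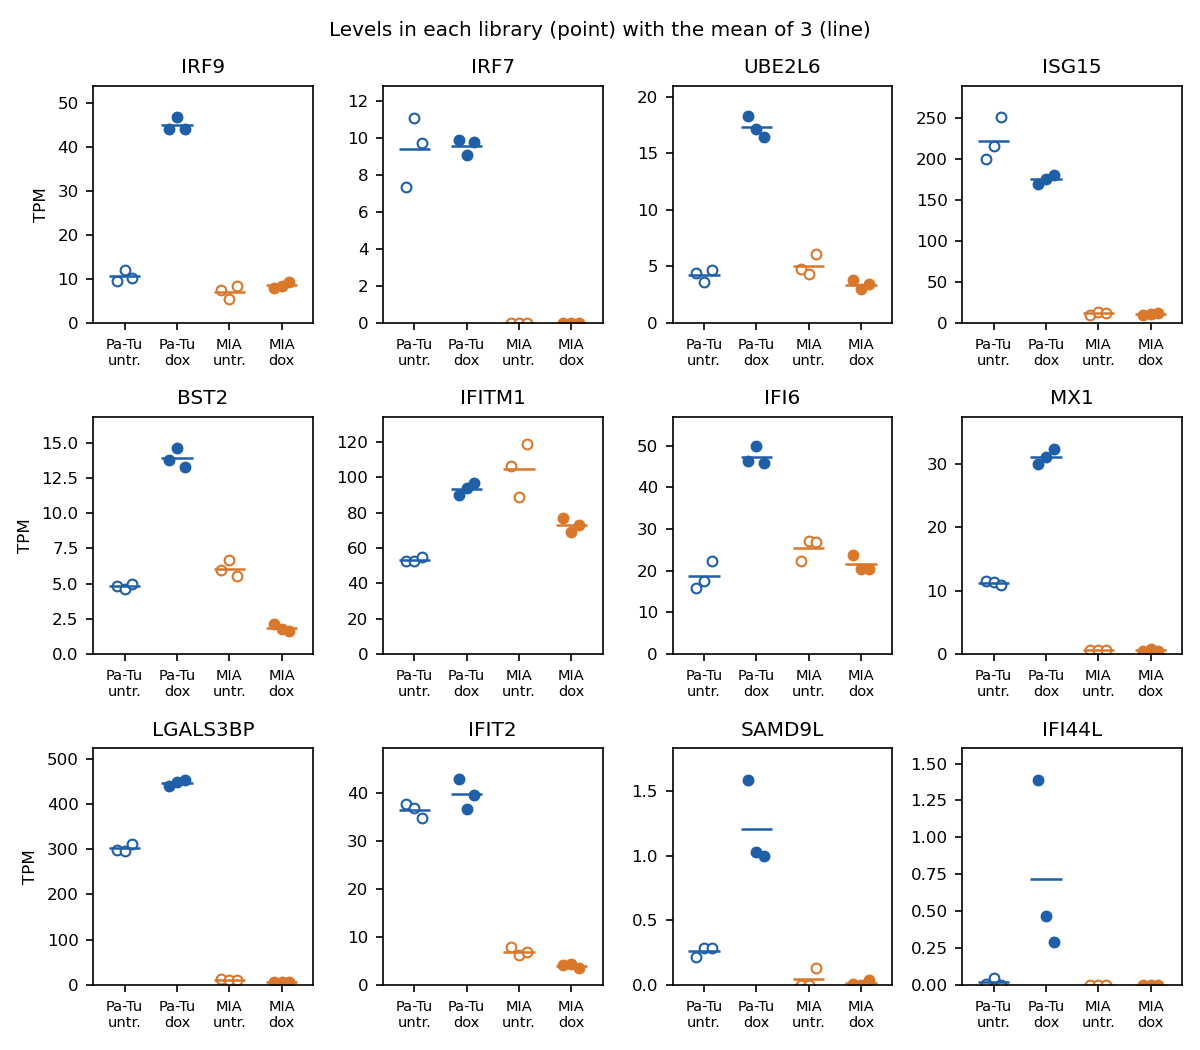
TPM (y axis, linear from 0, own scale in each panel) of 12 members in the 4 groups (x axis): untreated and dox-treated Pa-Tu-8902 (blue, open and filled) and MIA PaCa-2 (orange, open and filled). Points are libraries and lines are means of 3. IRF9, UBE2L6, BST2, IFITM1, IFI6 and MX1 are higher with dox in all 3 Pa-Tu-8902 libraries, UBE2L6, BST2, IFITM1, LGALS3BP and IFIT2 are lower with dox in all 3 MIA PaCa-2 libraries, and IRF7 is at 0 TPM in MIA PaCa-2.

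The promoters of the members were searched for the interferon-stimulated response element and the gamma-activated sequence. The search covered the 250 bases before and 50 bases after each start site in RefSeq (GRCh38.p14). The core of the response element was taken as 2 copies of GAAA set 2 bases apart, and the gamma-activated sequence as TTCNNNGAA, each on either strand. Of the 43 members, 36 matched a symbol in the promoter table. The response element core was present in 25 of them (69.4%) and in 4.38% of all 27305 genes of the table. The gamma-activated sequence was present in 11 of the 36 (30.6%) and in 9.38% of all genes. The response element core was found at a like share in the members called higher with dox in Pa-Tu-8902 (15 of 22, 68.2%) and in those tested and not called higher (10 of 14, 71.4%). The gamma-activated sequence was found in 10 of the 22 members called higher (45.5%) and in 1 of the 14 others (7.14%), PLSCR1. These shares are a description and were not tested, and IFIT2, IRF7, IFITM2, TRIM22, MX2, GBP2 and USP18 were not matched.

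Of the 22 members called higher, 7 held both motifs, 8 the core alone, 3 the gamma-activated sequence alone and 4 neither, and of the 14 others 1 held both, 9 the core alone and 4 neither. In EPSTI1, IFI27 and MX1, counted as holding both, the gamma-activated sequence found shares bases with a response element core, so the motifs are not separate sites there. Sites of 6 members, chosen to show each motif alone and both together, are given as 30 bases read 5′ to 3′ on the gene's own strand with the motif in capitals. IRF9, IRF1 and IFI35, all called higher in Pa-Tu-8902, hold the gamma-activated sequence and no response element core in this window, BST2 holds both, and ISG15 and IFIT1, neither called in Pa-Tu-8902, hold the core alone, as do 8 of the called members, among them IFI6, IFITM3 and RSAD2.
IRF9, gamma-activated sequence, plus strand, chr14:24161192-24161221: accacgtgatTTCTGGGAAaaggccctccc
IRF1, gamma-activated sequence, minus strand, chr5:132490878-132490907: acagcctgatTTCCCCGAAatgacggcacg
IFI35, gamma-activated sequence, plus strand, chr17:43006752-43006781: aggcagggatTTCACGGAAatgaaagtgga
BST2, gamma-activated sequence, minus strand, chr19:17405747-17405776: cccacctcctTTCTGGGAAactgaaactga
BST2, response element core, minus strand, chr19:17405735-17405764: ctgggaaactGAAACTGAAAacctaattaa
ISG15, response element core, plus strand, chr1:1013380-1013409: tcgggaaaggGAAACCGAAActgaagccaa
IFIT1, response element core on the opposite strand, plus strand gene, chr10:89392510-89392539: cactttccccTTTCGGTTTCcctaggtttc

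ISG15, a ubiquitin-like protein, is joined to its targets by the E2 enzyme UBE2L6 and the E3 ligase HERC5, and removed by USP18. Of these genes UBE2L6 was called higher and HERC5 lower in Pa-Tu-8902. UBE2L6 (chr11:57551656-57568284) was at 4.39, 3.62 and 4.67 TPM untreated and 18.3, 17.2 and 16.4 TPM with dox. The groups did not overlap, and the log2 fold change was 1.94 ± 0.12, or 3.84-fold (edgeR adjusted p = 5.01e-07). HERC5 went from 1.47, 1 and 0.98 TPM to 0.44, 0.62 and 0.6 TPM. It was the 1 member called lower in this line, by a log2 fold change of -0.97 ± 0.19 (edgeR adjusted p = 0.00155), and its treated libraries all lay below the untreated ones. ISG15 itself, at 199.7, 216 and 251 TPM untreated and 169.4, 176 and 181 TPM treated, also had lower normalized counts in every treated library. Its log2 fold change of -0.40 ± 0.09 missed the fold limit. USP18 (12.1 to 13.3 TPM untreated, 15.1 to 15.8 TPM treated) and HERC6, the neighbour of HERC5 on chromosome 4 (4.67 to 5.94 TPM over all 6 libraries), were not called.

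In MIA PaCa-2 UBE2L6 changed the other way, from 4.74, 4.35 and 6.08 TPM untreated to 3.77, 3 and 3.43 TPM with dox. Its treated libraries were all lower, with a log2 fold change of -0.63 ± 0.15 (edgeR adjusted p = 0.00662), and the difference of response between the lines was 2.57 ± 0.19 (edgeR adjusted p = 3.81e-08). The MIA PaCa-2 call was lost in 5 of 15 alternatives, with the log2 fold change between -0.70 and -0.55. HERC6 had a log2 fold change of -1.11 ± 0.30 in MIA PaCa-2 that was not called (edgeR adjusted p = 0.0125), and it was called in 7 of 15 alternatives, among them DESeq2 and a limit of 10 counts in every library.

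The IFIT proteins bind viral RNA and block its translation. All 4 IFIT genes, which lie between positions 89283694 and 89421605 of chromosome 10, were uncalled in Pa-Tu-8902, with log2 fold changes from -0.05 to 0.31. In MIA PaCa-2, 3 of the 4 were called lower. IFIT2 was at 7.89, 6.19 and 6.78 TPM untreated and at 4.06, 4.3 and 3.59 TPM with dox in MIA PaCa-2. All treated libraries were lower, by a log2 fold change of -0.86 ± 0.09 (edgeR adjusted p = 2.98e-05). In Pa-Tu-8902 it was at 37.5, 36.9 and 34.8 TPM untreated and 42.8, 36.5 and 39.6 TPM treated, and the groups overlapped. IFIT1 (-0.73) and IFIT5 (-0.84) were the other IFIT genes called in MIA PaCa-2, and IFIT3 (-0.25) was not called. For IFIT1, IFIT2 and IFIT5 the difference between the lines was called as well, at 0.83, 0.90 and 0.79 on the log2 scale.

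The dynamin-like GTPases MX1, MX2, GBP1 and GBP2, which oligomerize on viral or membrane targets, were all called higher in Pa-Tu-8902, though only MX1 had a sizeable level there. MX1 went from 11.6, 11.3 and 11.0 TPM to 30.1, 31.1 and 32.4 TPM, a log2 fold change of 1.46 ± 0.07 with groups apart (edgeR adjusted p = 5.9e-08). GBP2, with the highest estimate of the 4, had 1, 3 and 0 counts in the untreated and 33, 27 and 12 counts in the treated libraries. Since the untreated group lay at the limit of 3 counts, the change is given as the ratio of summed CPM, 15.97 with a 95% counting interval of 5.98 to 60.2. GBP1 had 5, 11 and 10 counts untreated and 80, 67 and 46 counts treated, and MX2 had 8, 7 and 5 counts untreated and 40, 43 and 48 treated. These 3 genes were therefore near the limit of detection without dox, and intervals on counts cover counting error only. MX1, MX2 and GBP2 were not called in MIA PaCa-2, where the log2 fold changes ran from -0.38 to 0.25, and GBP1 had at most 4 counts in any MIA PaCa-2 library.

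BST2 and the IFITM proteins act at membranes, BST2 (tetherin) by holding budding virions and IFITM1 to IFITM3 by blocking membrane fusion. BST2 (chr19:17402939-17405630) had the smallest adjusted p among the members for the difference of response. In Pa-Tu-8902 it went from 4.8, 4.59 and 5.01 TPM to 13.8, 14.7 and 13.3 TPM, and in MIA PaCa-2 from 5.97, 6.68 and 5.56 TPM to 2.1, 1.8 and 1.63 TPM. The groups did not overlap in either line. The log2 fold change was 1.41 ± 0.12 in Pa-Tu-8902 (edgeR adjusted p = 6.13e-06) and -1.80 ± 0.21 in MIA PaCa-2 (edgeR adjusted p = 4.53e-05), a difference of 3.21 ± 0.23 (edgeR adjusted p = 2.89e-08). The untreated lines were not called different in BST2.

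IFITM1 was at 52.7, 52.4 and 54.8 TPM untreated and 89.8, 93.7 and 96.9 TPM treated in Pa-Tu-8902. MIA PaCa-2 libraries were at 106.4, 88.9 and 119 TPM untreated and 76.8, 68.8 and 72.9 TPM treated. Groups were apart in both lines and in opposite directions, at 0.74 ± 0.06 and -0.59 ± 0.07 on the log2 scale, and the difference of 1.33 ± 0.10 was called (edgeR adjusted p = 5.62e-08). The MIA PaCa-2 change lay at the fold limit and was lost in 5 of 15 alternatives, between -0.63 and -0.54. IFITM3, the most abundant member, was at 314, 315 and 366 TPM untreated and 606, 703 and 718 TPM treated in Pa-Tu-8902, and at 273, 248 and 300.2 TPM untreated and 234, 218 and 222 TPM treated in MIA PaCa-2. It was called in Pa-Tu-8902 (0.95 ± 0.09) but not in MIA PaCa-2 (-0.35 ± 0.06), and the lines differed by 1.31 ± 0.12 (edgeR adjusted p = 4.83e-07). IFITM2 was called in MIA PaCa-2 (-0.72) and not in Pa-Tu-8902 (0.55), with a called difference of 1.27. These 3 genes lie together on chromosome 11 and are near-identical in places, so the split of reads among them is uncertain.

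Of the 7 enzymes that act on nucleotides or nucleic acids, 4 were called higher in Pa-Tu-8902 and 0 of the 4 that could be tested in MIA PaCa-2 were called in the fit of that line's 6 libraries by edgeR or by DESeq2. At an unadjusted edgeR p below 0.05 there were 2 of these 4, DDX60 (-0.98) and SAMHD1 (-0.41). DDX60 was called lower in the edgeR fit of all 12 libraries (adjusted p = 0.00972), against adjusted p of 0.0343 to 0.181 in the other edgeR and DESeq2 alternatives. Its counts were 28, 17 and 18 untreated and 14, 7 and 9 treated, so that it passed the limit of 10 counts in 3 libraries through the untreated group and could be found lower more readily than higher. SAMD9L, a translation regulator, went from 0.22, 0.29 and 0.29 TPM to 1.59, 1.03 and 1 TPM. All treated libraries were higher, by a log2 fold change of 2.27 ± 0.21 (edgeR adjusted p = 7.8e-06). RSAD2 (viperin), which makes a chain-terminating nucleotide, went from 1.06, 0.99 and 1.35 TPM to 3.38, 3.35 and 3.57 TPM. CMPK2, a mitochondrial kinase encoded head to head with RSAD2 on chromosome 2, went from 1.7, 1.86 and 1.59 TPM to 4.05, 3.82 and 4.78 TPM. The pair rose together, at 1.31 ± 0.12 and 1.27 ± 0.13 on the log2 scale, and shares 351 exonic bases on opposite strands. DDX60, a helicase-like sensor cofactor, was called at 0.60, just past the fold limit. That call was lost when untreated replicate 3 or treated replicate 1 was left out, and the value was 0.98 with effective lengths. SAMHD1, a dNTP hydrolase, ISG20, an exonuclease, and SAMD9 were not called in either line.

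PARP9, PARP14 and DTX3L, an ADP-ribosylation module encoded together on chromosome 3, were all called higher in Pa-Tu-8902. PARP14 went from 10.7, 9.26 and 7.77 TPM to 22, 17.8 and 18.9 TPM, a log2 fold change of 1.04 ± 0.06 with groups apart (edgeR adjusted p = 4.78e-07). PARP9 and its partner DTX3L, which run in opposite directions and overlap by 139 exonic bases, followed at 0.99 and 0.67. None of the 3 was called in MIA PaCa-2, where the log2 fold changes ran from -0.13 to 0.41. TRIM21, the cytosolic antibody receptor, was at 7.25, 6.17 and 7.14 TPM untreated and 12.1, 12.8 and 11.7 TPM treated in Pa-Tu-8902. The treated libraries were all higher (0.78 ± 0.10, edgeR adjusted p = 8.84e-05). SP100, a nuclear body protein, was not called (0.02), and TRIM22 had at most 9 counts in any library and was not tested.

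Of the other 9 members, 6 were called higher in Pa-Tu-8902. IFI44L had 1, 3 and 0 counts untreated and 47, 43 and 25 counts treated, a ratio of 25.5 with a 95% counting interval of 9.7 to 95.2. In TPM its treated libraries were uneven, at 1.39, 0.47 and 0.29, and all above the untreated ones. IFI27, a mitochondrial protein, was called at 2.26 from 8 to 13 counts untreated and 47 to 74 treated, and EPSTI1 at 2.05 from 14, 11 and 12 counts untreated and 60, 67 and 55 treated. IFI35 (1.41), IFI6 (1.27) and the apoptosis factor XAF1 (1.03) were called at higher levels, between 14.1 and 22.4 TPM without dox. IFI44 (-0.12), the scramblase PLSCR1 (0.55) and the secreted glycoprotein LGALS3BP (0.50) were not called, the last 2 with treated libraries above all untreated ones and changes below the fold limit.

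LGALS3BP was the most clearly lowered of this group in MIA PaCa-2, from 13.6, 10.5 and 11.9 TPM to 6.61, 6.19 and 5.8 TPM. All treated libraries were lower, by a log2 fold change of -1.07 ± 0.10 (edgeR adjusted p = 7.61e-06). In Pa-Tu-8902 it was at 299, 297 and 311 TPM untreated and 439, 449 and 454 TPM treated. The difference of response was 1.58 ± 0.12 (edgeR adjusted p = 6.62e-08).

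**Figure D3:**
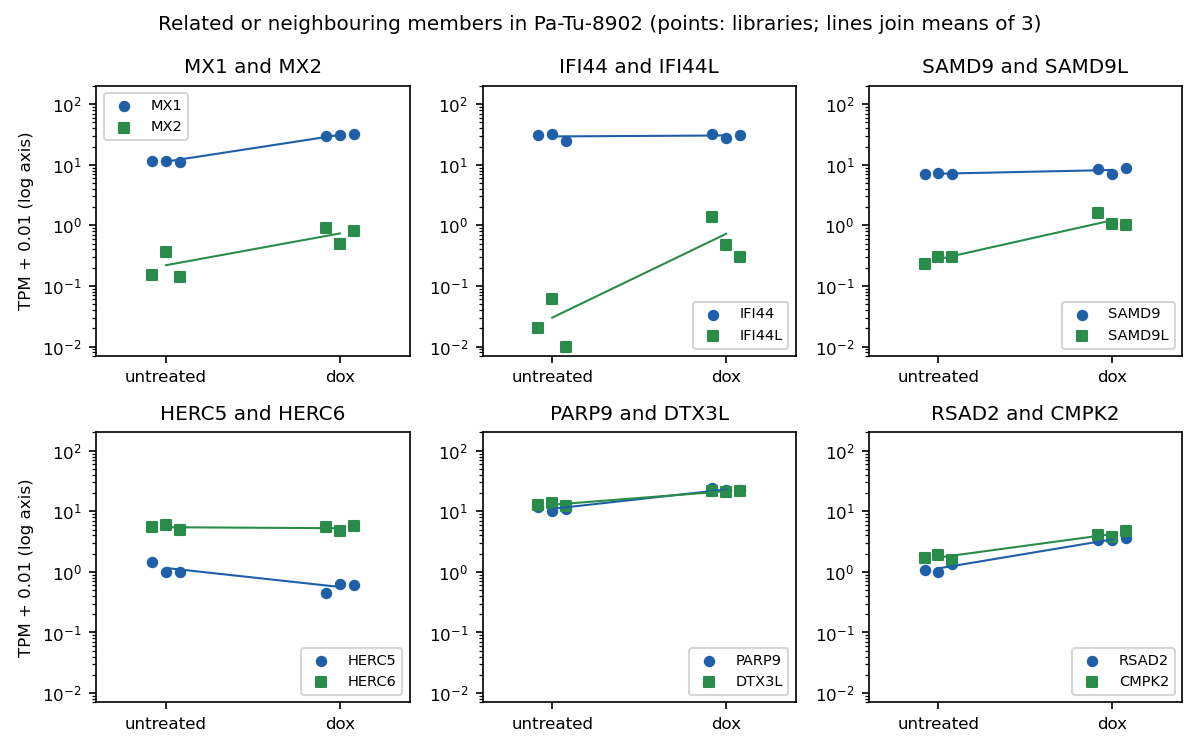
TPM + 0.01 (y axis, log scale) without and with dox (x axis) in Pa-Tu-8902 for 6 pairs of related or neighbouring members. Points are libraries and lines join the means of 3. MX1 and MX2, PARP9 and DTX3L, and RSAD2 and CMPK2 are higher in both genes, while IFI44L, SAMD9L and HERC5 change beside IFI44, SAMD9 and HERC6, which were not called.

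Neighbouring paralogs were not always called together in Pa-Tu-8902. IFI44 and IFI44L lie next to each other between positions 78619902 and 78664078 of chromosome 1. IFI44 was at 31.0, 32.4 and 24.8 TPM untreated and 32.8, 27.6 and 31.1 TPM treated, with normalized counts slightly lower in each treated library and no call (log2 fold change -0.12 ± 0.07), while IFI44L rose above the limit of 3 counts with dox. SAMD9 and SAMD9L adjoin on chromosome 7, and SAMD9 was at 7.1, 7.21 and 7.04 TPM untreated and 8.49, 7.15 and 8.97 TPM treated, with overlapping counts. In both pairs the called gene was the lower of the 2 in TPM in every library. MX1 and MX2, on chromosome 21, were both called. Differences of response between the genes of a pair were not tested.

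A direct test of the response in Pa-Tu-8902 against that in MIA PaCa-2, in a fit of all 12 libraries, called 22 of 42 members. All 22 were more positive in Pa-Tu-8902. Of all 16544 genes tested, 10.4% were called, 6.56% more positive in Pa-Tu-8902 and 3.86% more positive in MIA PaCa-2, and the members' median difference was 1.05 against -0.0015. Opposite changes, each called in its own line, were found for 3 members, IFITM1, BST2 and UBE2L6. A further 11 of the 22 were called higher in Pa-Tu-8902 and not called in MIA PaCa-2, and 5 (IFIT1, IFIT2, IFIT5, IFITM2 and LGALS3BP) were called lower in MIA PaCa-2 and not called in Pa-Tu-8902. HERC6 and PLSCR1 differed without a call in either line, and IFI27, called higher in Pa-Tu-8902, had too few counts for a test in MIA PaCa-2 alone. For the members silent in MIA PaCa-2 the joint fit holds no information on a response there.

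Without dox the lines already differed widely. Of 42 members tested, 27 were higher in Pa-Tu-8902 and 5 were higher in MIA PaCa-2. Among the 27, IRF7, XAF1, IFI44, CMPK2, RSAD2, SAMD9L, EPSTI1, HERC5 and GBP1 had fewer than 10 counts in every MIA PaCa-2 library. These genes passed the filter through Pa-Tu-8902 libraries alone, so they could only be called higher there. With at least 10 counts required in every library, 27 members were tested, of which 16 were called higher in Pa-Tu-8902 and 3 lower. The share of all genes called under that limit is not given here. Without that limit, differences were common, at 57.5% of all 16544 genes, 29.4% higher in Pa-Tu-8902 and 28.2% lower. The members' median log2 difference was 2.26, against 0.0018 over all genes. Among those with the smallest adjusted p, LGALS3BP was higher by 4.54 ± 0.09 on the log2 scale (23.3-fold, edgeR adjusted p = 6.78e-18), PLSCR1 by 4.06 ± 0.09 (16.6-fold) and IFIT3 by 3.42 ± 0.07 (10.7-fold). PLSCR1 was at 71.3, 77.0 and 72.7 TPM in untreated Pa-Tu-8902 and at 4.93, 3.16 and 4.16 TPM in untreated MIA PaCa-2. IFIT3 was at 38.8, 41.0 and 39.0 TPM in the former and 4.02, 3.21 and 3.67 TPM in the latter, and SAMD9 was at 7.1, 7.21 and 7.04 TPM against 0.1, 0.05 and 0.14 TPM. The ranges of the 2 lines did not overlap for these 4 genes. With dox PLSCR1 was at 125, 112 and 115 TPM in Pa-Tu-8902 and 2.92, 2.9 and 3.3 TPM in MIA PaCa-2, and IFIT3 at 55.7, 49.2 and 51.7 TPM against 3.21, 2.9 and 3.32 TPM.

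The reverse order held for MX2, IFITM1, IFITM2, SAMHD1 and GBP2. The GBP2 call rests on few counts, 1, 3 and 0 in untreated Pa-Tu-8902 and 17, 5 and 13 in untreated MIA PaCa-2. GBP2 had too few counts for a test in a fit of the 6 untreated libraries, as did GBP1, which was called higher in Pa-Tu-8902. MX2 was at 0.14, 0.36 and 0.13 TPM in untreated Pa-Tu-8902 and 5.94, 3.66 and 3.94 TPM in untreated MIA PaCa-2, a log2 difference of -4.82 ± 0.24 (edgeR adjusted p = 2.01e-12). MX1, its neighbour, was at 11.0 to 11.6 TPM in the former and 0.59 to 0.63 TPM in the latter, a difference of 3.88 ± 0.11. The 2 MX genes were thus expressed in opposite order in the 2 lines. In level per length, the most abundant members of untreated Pa-Tu-8902 were IFITM3 at a mean of 332 TPM, LGALS3BP at 302 TPM and ISG15 at 222 TPM. In untreated MIA PaCa-2 they were IFITM3 at 274 TPM, IFITM1 at 105 TPM and IFITM2 at 94.5 TPM. IRF9, STAT2, UBE2L6, BST2, IFIT5, TRIM21, IFI6, IFITM3 and IFI27 were tested and not called different between the untreated lines, and IFI44L, at 4 counts in all in untreated Pa-Tu-8902, was not called either.

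**Figure D4:**
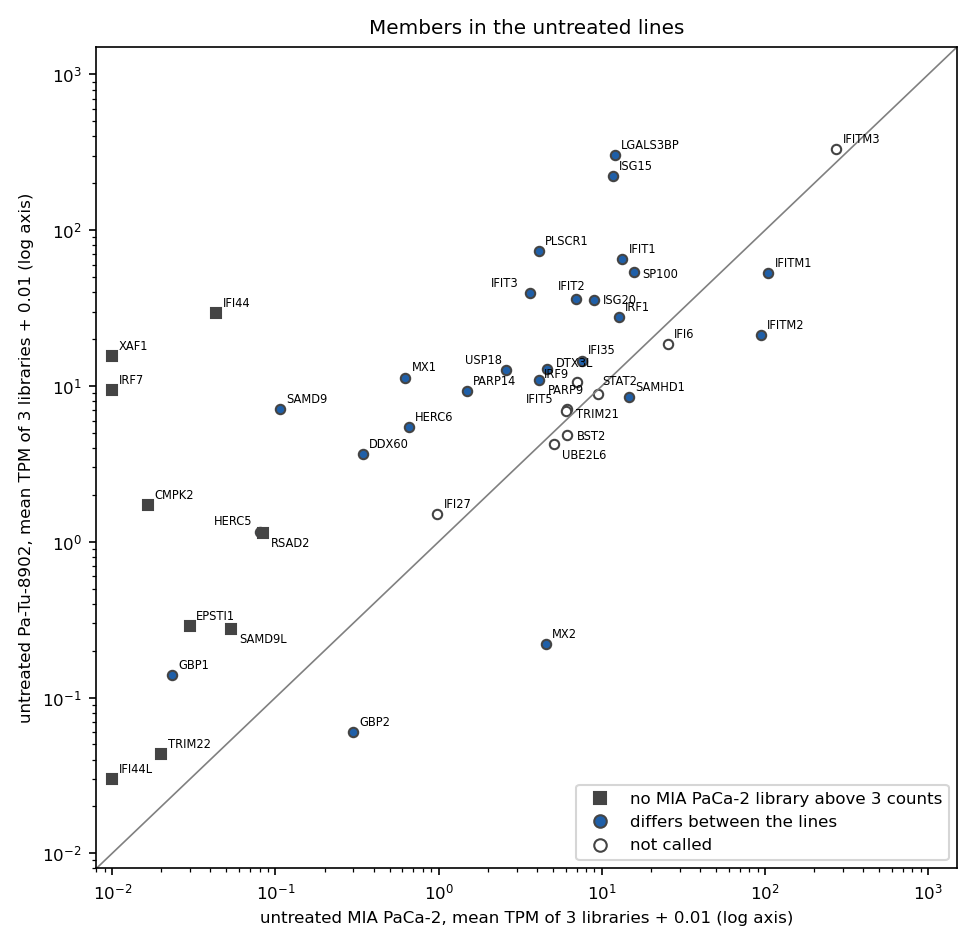
Mean TPM + 0.01 of each member in 3 untreated Pa-Tu-8902 libraries (y axis) against 3 untreated MIA PaCa-2 libraries (x axis), both on log scales, with the line of equal level. Squares are the 9 members with no MIA PaCa-2 library above 3 counts, filled circles the others called different between the untreated lines, open circles those not called. Most members lie above the line, and MX2, GBP2, IFITM1, IFITM2 and SAMHD1 lie below it as called.

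Silence was confined to MIA PaCa-2 at this limit. The members with no library above 3 counts in either condition were IRF7, IFI44, IFI44L, RSAD2, CMPK2, SAMD9L, XAF1, EPSTI1 and TRIM22, 9 in MIA PaCa-2, whereas Pa-Tu-8902 had 0. Of the 42 members tested in Pa-Tu-8902, 8 (19.0%) were silent in MIA PaCa-2, where 972 of the 14949 genes tested in Pa-Tu-8902 (6.5%) were silent. IRF7 had 204, 353 and 320 counts in untreated Pa-Tu-8902 and 0 in the 6 MIA PaCa-2 libraries, and was at least 72.0-fold higher when 3 counts per library are allowed for MIA PaCa-2. XAF1 had 762, 981 and 818 counts in untreated and 2120, 2198 and 1785 in treated Pa-Tu-8902, 0 in untreated and 1 in all in treated MIA PaCa-2, and was at least 255.7-fold higher. IFI44 had 652, 857 and 656 counts in the former and 1, 1 and 0 in untreated MIA PaCa-2. In MIA PaCa-2, RSAD2 had 3, 1 and 0 counts untreated and 3, 1 and 2 treated, and SAMD9L had 0, 0 and 3 untreated and 1, 0 and 2 treated. CMPK2 and EPSTI1 each had 1 count in all 6 MIA PaCa-2 libraries together. The limit was applied to untreated and treated libraries together, so by definition none of the 9 could exceed 3 counts with dox in MIA PaCa-2.

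The remaining silent members were compared between the untreated lines as ratios of summed CPM with 95% counting intervals. The ratio was 1037 (287 to 8569) for IFI44, 270.2 (48.1 to 10710) for CMPK2 and 58.2 (22.4 to 215) for RSAD2. It was 35.5 (5.98 to 1437) for EPSTI1 and 28.4 (9.42 to 140.4) for SAMD9L. IFI44L and TRIM22 were at or under 3 counts in every untreated library of both lines, so no ratio is given. In Pa-Tu-8902 with dox, TRIM22 reached 9, 8 and 5 counts. HERC5 and GBP1 were close to silence in MIA PaCa-2, at no more than 6 and 4 counts.

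Interferon genes themselves were almost absent. Of 21 interferon genes, only IFNE, an interferon of epithelial tissue, had enough counts to test. It was at 2.98, 3.13 and 1.46 TPM in untreated and 7.35, 4 and 5.37 TPM in treated Pa-Tu-8902, and at 0 TPM in all MIA PaCa-2 libraries. Groups were apart in Pa-Tu-8902, with a log2 fold change of 1.06 ± 0.26 (edgeR adjusted p = 0.00644). IFNB1 and IFNG were at 0.13 TPM or less in every library. Over a list of 49 ligand, receptor, kinase, factor, sensor and inhibitor genes, 28 could be tested in Pa-Tu-8902, and 3 were called higher (IFNE, TLR3 and IRF2) and 3 lower (IRF5, JAK2 and SOCS3). The number called higher fell to 2 with effective lengths, and without untreated replicate 1 or 3 or dox replicate 1 or 3. Of the 3, IFNE had the largest adjusted p. In MIA PaCa-2, 24 could be tested, and 3 were called higher (JAK1, STAT3 and IRF2) and 2 lower (IFNGR1 and IRF5). These shares, 21.4% and 20.8%, compare with 16.3% and 12% of all genes.

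The receptor chains IFNAR1 and IFNAR2 were expressed in both lines and not called in either. IFNGR1, the ligand-binding chain for interferon gamma, had a log2 fold change of 0.46 in Pa-Tu-8902, which missed the fold limit, and of -0.62 in the other line, where it was called, and the difference of 1.08 was called as well. Of the sensor genes, TMEM173 (STING) was at 41.2 to 50.9 TPM in Pa-Tu-8902 and at 0.96 TPM or less in MIA PaCa-2. The lambda receptor chain IFNLR1 was at 2.87 to 4.58 TPM in Pa-Tu-8902 and at 0.03 TPM or less in MIA PaCa-2.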

How the data were processed

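The data are 12 polyA RNA libraries, 3 for each of 4 groups, assigned by the deposited sample titles. The authors trimmed the reads (Trimmomatic 0.39) and used RSEM 1.3.1 with STAR 2.5.2a on GRCh38, per the labels and methods. The authors deposited RSEM expected counts, not normalized, of which 15.3% of the values above 0 are not whole, TPM values, which are scaled for gene length and library, and effective lengths per library. The authors' FPKM values and isoform tables were not used here.

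Expected counts were rounded and tested in edgeR 4.0.16 (R 4.3.3; TMM, glmQLFit, glmQLFTest) over genes that reached 10 counts in 3 or more of the fitted libraries, in each line's 6 libraries, and in all 12 for the difference of responses and for the untreated lines. P-values were adjusted by Benjamini-Hochberg over all genes tested, and a gene was called at an adjusted p below 0.01 and a fold of at least 1.5. Standard errors are the log2 fold change over the root of the F statistic. The fits for Pa-Tu-8902 and for the difference of responses were also run on simulated counts, with changes placed only in genes with higher counts. The simulation therefore does not bear on the fits for MIA PaCa-2 or the untreated lines, or on members with few counts. An exact permutation of 3 against 3 libraries cannot go below p = 0.1. Alternatives were DESeq2 1.42.0, other scalings, filters, thresholds and effective length offsets, a replicate block and each library left out. Positions and shared exons are from GENCODE 44 and promoters from RefSeq, both on GRCh38. The study's methods name an earlier GENCODE release for its annotation, and exon sharing in that release was not checked.

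The members and lists were chosen with earlier results of these data known. All members are accounted for by role. A pathway gene and an immune marker were left out of the lists and are not reported here. By the rule for named genes, values by library were to be given for the 4 factors, the called member of each role with the largest absolute log2 fold change in each line, the silent members and the 5 with the smallest adjusted p in each comparison of the lines, and the remaining genes with such values were chosen after their values were seen. Where a gene had few or no counts in a line, its range or sum is given instead.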

Additional observations from a re-analysis of the deposited data

Results flagged for a closer look

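The dox response of 22 members differed between the lines by the test of the difference itself, in the fit of 12 libraries. The log2 difference, Pa-Tu-8902 minus MIA PaCa-2, was 3.94 for IFI27, 3.57 for GBP2, 3.21 for BST2, 2.57 for UBE2L6 and 2.37 for MX2. The estimates for IFI27, GBP2 and MX2 rest on few counts. IFI27 had 1, 3 and 7 counts in treated MIA PaCa-2. In untreated Pa-Tu-8902, GBP2 had 1, 3 and 0 counts and MX2 had 8, 7 and 5. It was 1.85 for MX1, 1.74 for IRF9, 1.60 for IFI6, 1.59 for DDX60, 1.58 for LGALS3BP and 1.33 for IFITM1. For IFITM3 it was 1.31, for IFITM2 1.27, for PARP9 1.12, for PLSCR1 1.09, for IFI35 1.09 and for HERC6 1.02. The smallest were 0.91 for TRIM21, 0.90 for IFIT2, 0.83 for IFIT1, 0.79 for IFIT5 and 0.63 for PARP14.

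Among the other genes of the pathway the difference was 1.71 for TLR3, 1.08 for IFNGR1 and 0.77 for MYD88, and it was negative for IRF5 (-0.96), SOCS3 (-0.86), TICAM1 (-0.67) and JAK2 (-0.60). Groups of 3 libraries are too small to single out a library by its gap from the others.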

How the results depend on the processing

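Across the alternatives no member changed sign in a comparison in which it was called, and the number called kept within 1.5 times its main value in each comparison of the 43 members, except for the untreated lines, where a limit of 10 counts in every library left 27 members to test and 19 called, against 32. Of the called members, 24 of 25 for Pa-Tu-8902, 6 of 8 for MIA PaCa-2, 18 of 22 for the difference and 31 of 32 for the untreated lines stayed called in every alternative in which they were tested. Leaving out each library in turn gave 22 to 25 members for Pa-Tu-8902, 6 to 9 for MIA PaCa-2, 19 to 24 for the difference and 32 to 33 for the untreated lines; MX2, GBP2 and IFI44L could not be tested without any 1 of the dox-treated Pa-Tu-8902 libraries. The MIA PaCa-2 call of UBE2L6 was lost without untreated replicate 3 or any 1 dox replicate, that of IFITM1 without untreated replicate 3 or dox replicate 2, and the difference between the lines without any 1 of 6 libraries for GBP2, any 1 of 7 for HERC6 and MIA PaCa-2 untreated replicate 1 for PARP14. With effective lengths the difference was lost for GBP2, MX2 and PARP14.

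The silent count of 9 fell to 2 (IRF7 and IFI44L) when no count was allowed. It was 10 at a limit of 10 counts, where HERC5 and GBP1 joined. At a mean TPM of the line below 0.1 it was 8, where HERC5 joined and RSAD2 left. Under both of these wider limits TRIM22 was silent in both lines and so was not counted as silent in MIA PaCa-2 alone. For the pathway genes, dropping the fold limit gave 15 called in Pa-Tu-8902 against 6, and 8 in MIA PaCa-2 against 5. The MIA PaCa-2 count was 3 with effective lengths, and 2 to 5 when a library was left out (4 to 6 in Pa-Tu-8902). It was 3 without dox replicate 2 or 3 and 2 without untreated replicate 2.

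Libraries with the same replicate number did not deviate together (Pearson r across genes 0.134, -0.0808 and 0.139 in Pa-Tu-8902 and 0.0652, -0.0935 and -0.051 in MIA PaCa-2), so the numbers were not treated as pairs. With the replicate block, 25 members were called for Pa-Tu-8902, 9 for MIA PaCa-2, 22 for the difference and 32 for the untreated lines.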
